A study of Mus musculus with 4 samples.

Results

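Basement membranes are thin sheets of matrix under epithelium, around vessels, muscle, fat and nerve. Laminins, trimers of an α, a β and a γ chain, form their network, nidogens link that network to type IV collagen, and integrins, pairs of an α and a β chain, are the receptors by which cells hold on to it. Each salivary acinus and duct rests on such a sheet, and leukocytes use a set of integrins of their own to leave vessels and to move through tissue. RNA of 37 genes of these families was measured in the salivary glands of *Nfkbiz*-/- and *Nfkbiz*+/+ mice, out of 21904 named genes on the array. The 37 genes were taken by name: all laminin chains, both nidogens and all α and β integrin chains with a symbol of the usual form, except *Itgam* and *Itgax*, with 1 transcript cluster (the set of probes that stands for a gene) each. They fall into 13 laminins and nidogens of the basement membrane, 5 integrins of epithelial cells, 6 integrins of leukocytes, 2 integrins of platelets and vessels, and 11 other integrins. These 11 are called shared below, though some of them, such as *Itga8* and *Itga10*, are chains of fewer cell types.

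The arrays were 4, 1 for each of 4 female mice aged 20 weeks. M47 and M49 were *Nfkbiz*-/- mice, which lack IκB-ζ, a nuclear regulator of NF-κB target genes, in every cell, and M30 and M55 were *Nfkbiz*+/+ mice. After weaning, each mouse lived only with mice of its own genotype, so genotype and cage cannot be told apart. Each RNA sample came from parotid, sublingual and submandibular glands together. M47's label gives the strain as ICR and the other labels give none. The methods of the study give another, mixed background without ICR for the *Nfkbiz*+/- mice it received. The sources used here do not explain the difference.

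Several facts of these arrays touch the results. *Nfkbiz* itself had log2 values of 6.18 and 5.78 in *Nfkbiz*-/- mice, against 5.04 and 7.29 in *Nfkbiz*+/+ mice; the sources used here do not say where in the gene the probes lie, so this checks no label. The 6 acinar markers had a median log2 value of 11.83 to 12.74 in each of the 4 mice, against a median of 4.83 to 4.89 over all clusters. They were not even across mice. *Amy1* was 12.87 in M47, 12.92 in M49 and 12.94 in M30, against 10.93 in M55. *Bpifa2* was also lowest in M55, while *Aqp5*, *Pip* and *Prol1* were highest there. M55 stood apart in markers of neighbouring tissue as well. The summed linear level of 6 fat cell markers was 96.4 and 109.7 in *Nfkbiz*-/- mice, against 135.9 in M30 and 735.6 in M55. That of 8 skeletal muscle markers was 112.4 and 103.8 in *Nfkbiz*-/- mice, against 118.0 in M30 and 339.1 in M55. By the rule used for the genes below, 3 of the 6 fat cell markers and 3 of the 8 muscle markers were lower in *Nfkbiz*-/- mice and 0 were higher.

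Of the 37 genes, 3 were higher in *Nfkbiz*-/- mice, which is 8.11% of them, and 0 were lower, at an unadjusted limma p under 0.05 and a difference of at least 1.5-fold. Over all 22206 clusters, 2.93% were higher and 3.69% lower by the same rule. The 3 genes were *Itgav*, the αV integrin chain, *Itgb2*, the β2 chain of leukocytes, and *Itga2*, the α2 chain of a collagen and laminin receptor. Each came from a different group of the families. In bulk RNA, more cells of a type and more RNA per cell cannot be told apart. None had an adjusted p under 0.05 by limma with Benjamini-Hochberg adjustment, where the values of the 37 genes lay between 0.468 and 0.995, and no cluster of the array did. At an unadjusted limma p under 0.05 alone, 4 of the 37 genes and 2015 of all clusters passed. Each of the 3 genes lost its call when 1 or another mouse was left out, and other genes passed in some of these fits. The share of all clusters that passed changed as well. The count thus depended on single mice, and counts with a mouse left out are not given. With 2 mice of each genotype, an exact permutation test cannot give a 2-sided p below 0.333.

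**Figure D1:**
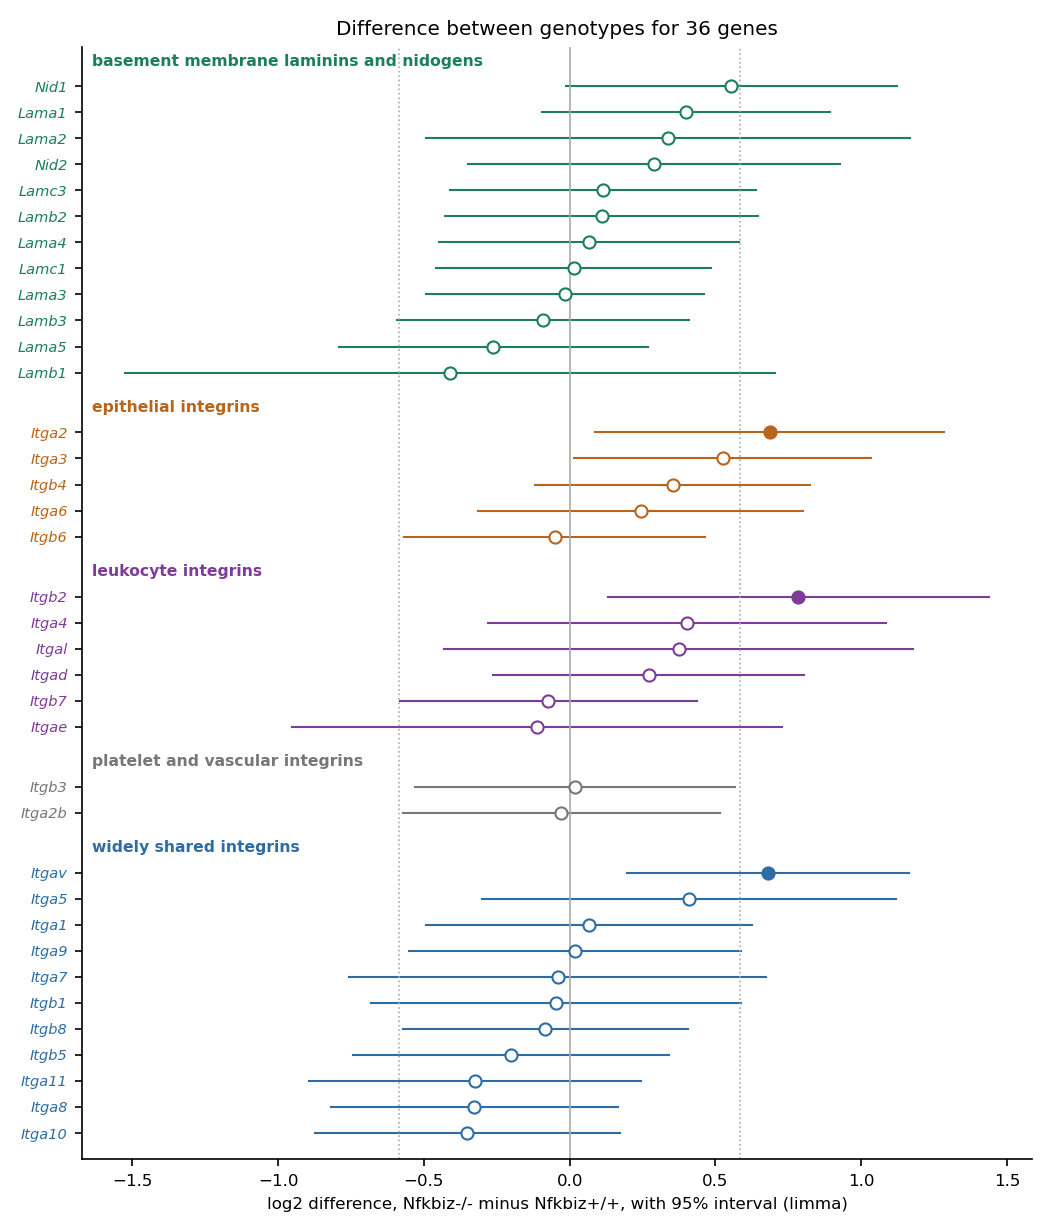
Difference between genotypes for 36 of the 37 genes, in 5 groups (rows). Points give the log2 difference, *Nfkbiz*-/- minus *Nfkbiz*+/+, bars its 95% interval from limma, filled points the 3 genes past both thresholds, and dotted lines a 1.5-fold difference. The epithelial integrins lie mostly to the right, with a median of 0.35, and the laminins and nidogens around a median of 0.11.

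The groups of genes differed in where their values lay. The median log2 difference was 0.11 over the 13 laminins and nidogens, 0.35 over the 5 epithelial integrins and 0.32 over the 6 leukocyte integrins, beside -0.02 over all clusters. It was -0.05 over the 11 shared integrins. No difference between these medians was tested. In 8 of the 37 genes both *Nfkbiz*-/- mice lay above both *Nfkbiz*+/+ mice, as in 18.2% of all clusters, and in 3 they lay below, as in 21.5% of all clusters. Of those 8, 3 were epithelial integrins, 2 were laminins or nidogens, 2 were leukocyte integrins and 1 was a shared integrin.

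In most of the 37 genes, mice of 1 genotype differed as much as the genotypes did. The gap between M47 and M49 exceeded the difference between genotypes in 23 genes, and the gap between M55 and M30 did so in 22. Both gaps were smaller than the difference in 8. M30 had the lowest value of the 4 mice in 15 of the 37 genes, and M49 the highest in 14.

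**Figure D2:**
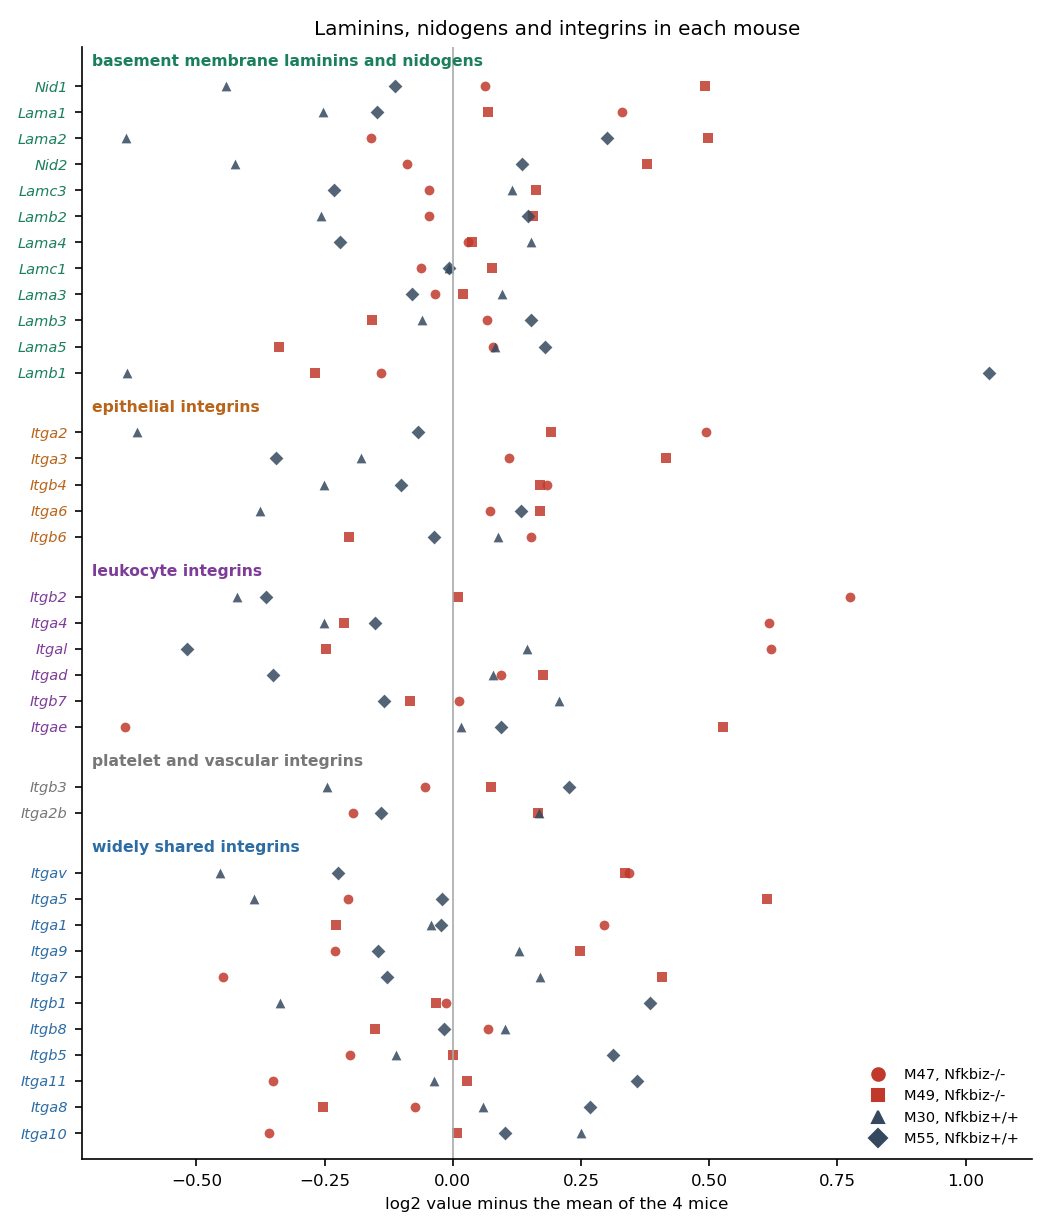
Log2 value of 36 of the 37 genes in each mouse, minus the mean of the 4 mice (horizontal axis), in 5 groups from top to bottom. Red points are *Nfkbiz*-/- mice and dark points *Nfkbiz*+/+ mice. M49 lies rightmost in *Nid1*, *Lama2* and *Nid2*, M30 leftmost in 3 of the 5 epithelial integrins, and M47 far right in *Itgb2*, *Itga4* and *Itgal*.

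*Itgav* encodes the αV chain, which pairs with β1, β3, β5, β6 or β8 to bind fibronectin, vitronectin and, in the β6 and β8 pairs, latent TGF-β. The array's annotation places it at 83724397 to 83806917 on chromosome 2. Its log2 value was 9.04 in M47 and 9.03 in M49, against 8.24 in M30 and 8.47 in M55. Both *Nfkbiz*-/- mice thus stood above both *Nfkbiz*+/+ mice, and they were nearly alike. The difference was 0.68 on the log2 scale (SE 0.21, limma unadjusted p = 0.0123, adjusted p = 0.468), or 1.60-fold. Leaving out M47 gave 0.67, leaving out M49 gave 0.68 and leaving out M30 gave 0.56, each with the call lost, and without M55 the value was 0.79 and still called.

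None of the 5 β chains that pair with αV was called. *Itgb1*, the partner of most α chains of tissue cells, had log2 values of 8.28 and 8.25 in *Nfkbiz*-/- mice, against 7.95 and 8.67 in *Nfkbiz*+/+ mice. *Itgb6*, the β chain of epithelial cells, had 7.73 and 7.37 in *Nfkbiz*-/- mice, against 7.66 and 7.54 in *Nfkbiz*+/+ mice. Values of the 2 genotypes overlapped in both. *Itgb3*, of vessels, platelets and osteoclasts, had 4.79 and 4.92 in *Nfkbiz*-/- mice, against 4.60 and 5.07 in *Nfkbiz*+/+ mice. *Itgb5*, a receptor chain for vitronectin, had 6.89 and 7.09 in *Nfkbiz*-/- mice, against 6.98 and 7.41 in *Nfkbiz*+/+ mice. *Itgb8*, whose pair with αV binds latent TGF-β, had 5.11 and 4.89 in *Nfkbiz*-/- mice, against 5.14 and 5.02 in *Nfkbiz*+/+ mice. The 5 log2 differences lay between -0.20 and 0.02. Their 95% intervals reached from -0.74 to 0.59, below the 0.68 of *Itgav* itself, whose own interval ran from 0.19 to 1.16. Whether *Itgav* differed from its partners was not tested.

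**Figure D3:**
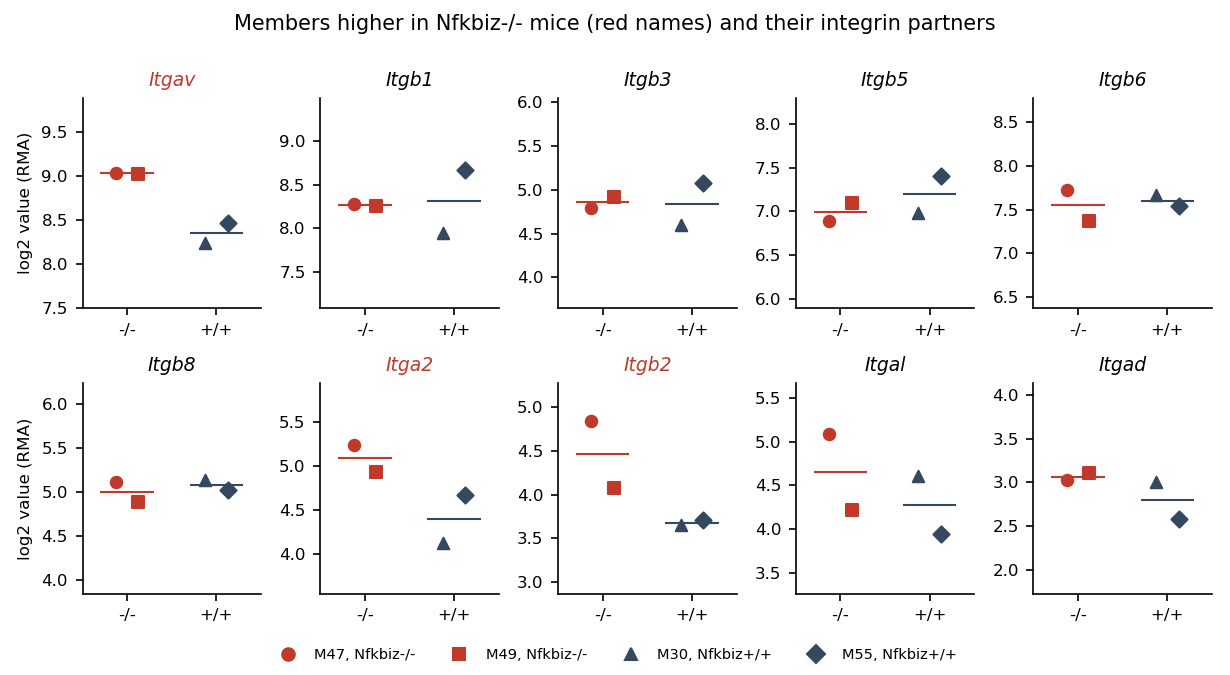
Log2 values of the 3 genes called higher (names in red) and of the integrin chains among the 37 that pair with αV or β2; each panel spans the same range, horizontal lines are means of 2 mice, and -/- and +/+ stand for *Nfkbiz*-/- and *Nfkbiz*+/+. *Itgav* lies at 9.04 and 9.03 in *Nfkbiz*-/- mice, against 8.24 and 8.47 in *Nfkbiz*+/+ mice, while the values of its partners overlap.

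The other shared integrins were not called. *Itga5*, the α chain of the main fibronectin receptor, was 4.24 in M47 and 5.06 in M49, against 4.06 in M30 and 4.42 in M55, with M49 high and a log2 difference of 0.41 (SE 0.30). Without M47 it was 0.82 and past both thresholds, and without M49 it was near 0. *Itga8*, an α chain of smooth muscle and fibroblasts, had log2 values of 5.56 and 5.39 in *Nfkbiz*-/- mice, against 5.70 and 5.91 in *Nfkbiz*+/+ mice. *Itga10*, an α chain of cartilage collagen receptors, had 4.19 and 4.56 in *Nfkbiz*-/- mice, against 4.80 and 4.65 in *Nfkbiz*+/+ mice. Both lay lower in both *Nfkbiz*-/- mice, with log2 differences of -0.33 and -0.35, with limma unadjusted p of 0.162 and 0.158. Of the other shared α chains, the collagen receptor chain *Itga11* had a log2 difference of -0.32 and *Itga1*, *Itga7* and *Itga9* lay between -0.04 and 0.07.

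Most of the epithelial integrins listed here hold acinar and duct cells to the laminin or collagen below them. *Itga2*, at 114835912 to 114932041 on chromosome 13, had log2 values of 5.24 in M47 and 4.94 in M49, against 4.13 in M30 and 4.68 in M55. All values of *Nfkbiz*-/- mice lay above those of *Nfkbiz*+/+ mice, M30 being low. Its log2 difference was 0.69 (SE 0.26, limma unadjusted p = 0.0296, adjusted p = 0.511). It fell short of the call without M47 (0.53) and without M30 (0.41), and stood at 0.96 without M55. With all 4 mice it was the only gene of the epithelial group that was called.

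*Itga3* encodes the α3 chain of a receptor for laminin-332 and laminin-511. Its log2 values were 6.52 and 6.82 in *Nfkbiz*-/- mice, against 6.23 and 6.06 in *Nfkbiz*+/+ mice. The genotypes did not overlap, and the difference of 0.52 (SE 0.22, limma unadjusted p = 0.0448, adjusted p = 0.536) corresponds to 1.44-fold, just short of the 1.5-fold threshold. *Itgb4*, the hemidesmosome chain that anchors keratin filaments to laminin-332, showed a like order with a smaller difference. Its values were 7.36 and 7.35 in *Nfkbiz*-/- mice, against 6.93 and 7.08 in *Nfkbiz*+/+ mice, a log2 difference of 0.35 (95% interval -0.12 to 0.83). *Itga6*, which pairs with β4 in hemidesmosomes and with β1 elsewhere, was 8.78 and 8.87 in *Nfkbiz*-/- mice, against 8.33 in M30 and 8.84 in M55. Here only M30 lay apart, and without it the log2 difference of 0.24 became -0.01. *Itgb6* made up the fifth gene of the group, with a log2 difference of -0.05.

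All 4 genes with an unadjusted limma p under 0.05 were higher in *Nfkbiz*-/- mice, and the promoters of 3 of them are shown. These promoters are the 250 bases before the annotated start, 5′ to 3′ on the strand of the gene, from RefSeq for GRCm38.p6. There, 22 of the 37 genes had a window, and *Itgb2*, the fourth gene, had none. *Itgav* is at chr2:83724147-83724396 on the + strand, *Itga2* at chr13:114932101-114932350 on the - strand and the upstream start of *Itga3* at chr11:95076715-95076964 on the - strand.
*Itgav*: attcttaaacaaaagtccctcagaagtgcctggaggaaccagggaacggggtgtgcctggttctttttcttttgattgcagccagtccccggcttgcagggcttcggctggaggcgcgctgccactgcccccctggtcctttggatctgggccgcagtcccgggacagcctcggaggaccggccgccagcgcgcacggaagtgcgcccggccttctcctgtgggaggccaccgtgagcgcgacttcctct
*Itga2*: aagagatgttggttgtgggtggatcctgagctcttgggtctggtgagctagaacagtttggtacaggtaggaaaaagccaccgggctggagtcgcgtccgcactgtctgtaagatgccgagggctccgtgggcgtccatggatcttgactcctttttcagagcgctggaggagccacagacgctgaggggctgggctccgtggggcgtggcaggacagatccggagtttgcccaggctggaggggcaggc
*Itga3*: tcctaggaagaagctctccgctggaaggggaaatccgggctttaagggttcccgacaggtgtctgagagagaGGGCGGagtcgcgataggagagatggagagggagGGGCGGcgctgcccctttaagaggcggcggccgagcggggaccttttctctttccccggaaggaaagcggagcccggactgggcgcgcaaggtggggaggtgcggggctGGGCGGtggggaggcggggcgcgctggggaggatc
Capitals mark matches, on either strand, to 4 motifs: the Sp1 box GGGCGG, the AP-1 element TGANTCA, the STAT-type element TTCNNNGAA and the NF-κB consensus. The motifs do not overlap each other here. *Itga3* holds 3 Sp1 boxes, a motif found in 32.7% of 32851 windows of the same length. The windows of *Itgav* and *Itga2* hold none of the 4. The AP-1 element, the STAT-type element and the NF-κB consensus are found in 6.75%, 7.02% and 3.9% of the windows, and in 0, 2 and 1 of the 25 windows of the 22 genes, the last in *Lamb3*.

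Leukocyte integrins showed 1 gene higher of 6. *Itgb2*, the β2 chain shared by the adhesion receptors of lymphocytes, neutrophils and macrophages, lies at 77530252 to 77565708 on chromosome 10. Its log2 values were 4.84 in M47 and 4.08 in M49, against 3.65 in M30 and 3.71 in M55. M47 stood well above the other 3 mice, M49 slightly above both *Nfkbiz*+/+ mice. Both *Nfkbiz*+/+ values lay only a little above the lower quartile of their arrays, 3.53 in M30 and 3.44 in M55. The log2 difference was 0.78 (SE 0.28, limma unadjusted p = 0.0247, adjusted p = 0.502), or 1.72-fold. Leaving out M49 gave 1.17 and kept the call, which was lost on leaving out M47 (0.40), M30 (0.76) or M55 (0.81).

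Of the 2 α chains among the 37 genes that pair with β2, none was called. *Itgal*, the αL chain of lymphocytes that binds ICAM-1, had log2 values of 5.08 in M47 and 4.22 in M49, against 4.61 in M30 and 3.95 in M55. Its genotypes overlapped, and its log2 difference of 0.37 (SE 0.34) was -0.06 without M47. *Itgad*, the αD chain of a subset of macrophages, was below the lower quartile of the array in all 4 mice, at 3.02 and 3.11 in *Nfkbiz*-/- mice, against 3.01 and 2.58 in *Nfkbiz*+/+ mice. The αM chain gene *Itgam*, of macrophages and neutrophils, is outside the 37 but pairs with β2, and had 4.75 and 4.35 in *Nfkbiz*-/- mice, against 4.03 and 3.52 in *Nfkbiz*+/+ mice (log2 difference 0.78, SE 0.26, limma unadjusted p = 0.0184, adjusted p = 0.478). This call was lost without M47 (0.58) and without M55 (0.53). *Itgax*, the αX chain gene of dendritic cells, had a log2 difference of 0.25 and was not called.

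The integrins of the α4 and β7 chains, which bring lymphocytes to vessels that carry VCAM-1 or MAdCAM-1, were not called. *Itga4* was 5.90 in M47 and 5.08 in M49, against 5.04 in M30 and 5.14 in M55. M47 alone was high. The log2 difference of 0.40 (SE 0.29) was 0.82 and past both thresholds without M49, and -0.01 without M47. *Itgb7*, the partner of α4 and of αE, had log2 values of 7.70 and 7.60 in *Nfkbiz*-/- mice, against 7.89 and 7.55 in *Nfkbiz*+/+ mice. *Itgae*, the αE chain by which lymphocytes hold E-cadherin of epithelial cells, was 3.09 in M47 and 4.26 in M49, against 3.75 in M30 and 3.82 in M55. The 2 *Nfkbiz*-/- mice thus lay on either side of the *Nfkbiz*+/+ mice in *Itgae*.

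Some markers of leukocytes were higher in *Nfkbiz*-/- mice as well. Of 5 markers of all leukocytes, 3 were higher in *Nfkbiz*-/- mice and 0 lower, and their summed linear level was 406.1 and 320.8 in *Nfkbiz*-/- mice, against 172.3 and 238.7 in *Nfkbiz*+/+ mice. Of 8 macrophage markers, 3 were higher and 0 lower, and their summed level was 470.9 and 456.6 in *Nfkbiz*-/- mice, against 247.6 and 369.9 in *Nfkbiz*+/+ mice. *Ptprc*, which encodes CD45, had log2 values of 7.24 in M47 and 6.27 in M49, against 5.28 in M30 and 6.28 in M55, and lost its call without M47 or without M30. *Laptm5*, a lysosomal protein of leukocytes, and the macrophage genes *Mrc1* and *C1qa* passed both thresholds with any 1 of the 4 mice left out, with log2 differences of 1.08, 0.82 and 0.96 in all mice. The leukocyte marker *Cd53* and the macrophage marker *Cd68* were also called, with log2 differences of 0.73 and 1.13 in all mice. *Cd53* lost its call without M47 (0.60), and *Cd68* without M47 (0.93) or without M30 (0.47). None of 6 B cell and 8 T cell markers was called. The summed level of the B cell markers was 112.7 in M47 and 71.4 in M49, against 80.4 in M30 and 66.8 in M55. That of the T cell markers was 1443.8 in M47 and 434.5 in M49, against 247.7 in M30 and 692.6 in M55. Among these, *Cd3e* alone ran from a log2 value of 4.65 in M30 to 10.25 in M47. By these summed levels M47 was high in the B cell markers, as in *Itgb2*, *Itga4* and *Itgal*, and both *Nfkbiz*-/- mice were high in the macrophage markers. Single markers went the other way. *Adgre1*, a macrophage marker, had log2 values of 4.61 and 4.12 in *Nfkbiz*-/- mice, against 4.55 and 5.12 in *Nfkbiz*+/+ mice. The B cell marker *Cd79b* was lowest in M47, and *Cd163*, of macrophages, and *Cd22*, of B cells, were lower in M47 than in M30. *Coro1a*, a marker of all leukocytes, was also lowest in M47, at 4.44. The T cell marker *Cd8b1* was lower in both *Nfkbiz*-/- mice than in both *Nfkbiz*+/+ mice. The part of these markers in the leukocyte integrins was not tested.

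**Figure D4:**
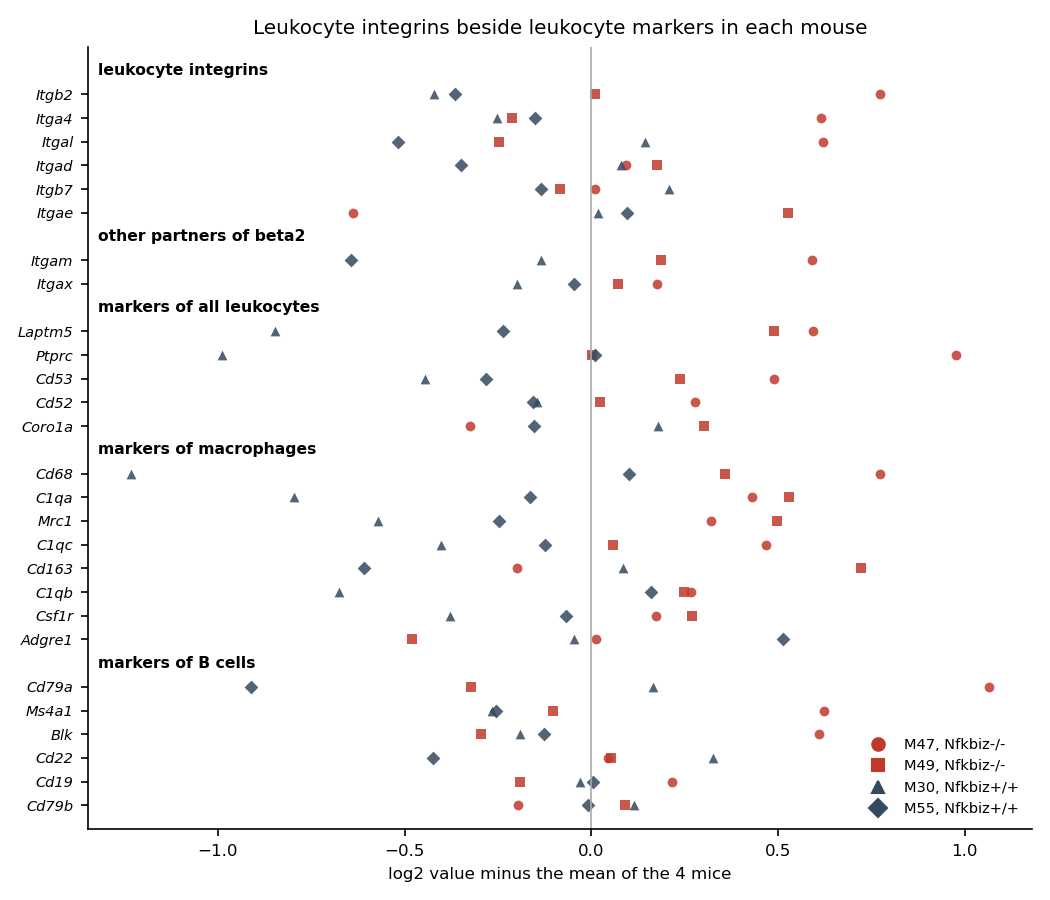
Log2 values of the 6 leukocyte integrins, of *Itgam* and *Itgax* and of markers of all leukocytes, macrophages and B cells in each mouse, minus the mean of the 4 mice. Red points are *Nfkbiz*-/- mice and dark points *Nfkbiz*+/+ mice. M47 lies far right in *Itgb2*, *Itga4*, *Itgal*, *Ptprc*, *Cd79a* and *Ms4a1*.

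The counter-receptors of these integrins were mostly not called. Of 7 ligands of leukocyte integrins, 1 was higher and 0 lower. It was *Icam2*, an endothelial ligand of αLβ2, at 5.29 and 4.84 in *Nfkbiz*-/- mice, against 4.62 and 4.26 in *Nfkbiz*+/+ mice, a log2 difference of 0.62 (SE 0.25), lost without M47 (0.40) and without M55 (0.44). In the same list *Jam2* fell just short of the 1.5-fold threshold in the other direction. Both *Nfkbiz*-/- mice lay below both *Nfkbiz*+/+ mice in it, with a log2 difference of -0.54 (limma unadjusted p = 0.0389). The median log2 difference over the 7 ligands was -0.02. *Itga2b* and *Itgb3*, the pair that binds fibrinogen on platelets, had log2 differences of -0.03 and 0.02. *Itga2b* was 6.54 and 6.90 in *Nfkbiz*-/- mice, against 6.91 and 6.60 in *Nfkbiz*+/+ mice. None of 5 platelet markers was called.

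No laminin or nidogen was called. *Nid1*, which links laminin to type IV collagen, had log2 values of 5.83 in M47 and 6.26 in M49, against 5.33 in M30 and 5.66 in M55. Its genotypes did not overlap. The log2 difference of 0.55 (SE 0.24, limma unadjusted p = 0.0538, adjusted p = 0.557) passed both thresholds without M47 (0.77) and without M55 (0.72), and was 0.34 without M49 and 0.39 without M30. *Nid2*, its relative, was 5.21 and 5.68 in *Nfkbiz*-/- mice, against 4.88 and 5.43 in *Nfkbiz*+/+ mice, which overlap.

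Among the α chains, *Lama1*, the chain of laminin-111 and of early embryos, had log2 values of 4.22 and 3.96 in *Nfkbiz*-/- mice, against 3.64 and 3.75 in *Nfkbiz*+/+ mice. The difference was 0.40 (SE 0.21, limma unadjusted p = 0.098). *Lama5*, the chain of laminin-511 under most adult epithelium, lay lower in both *Nfkbiz*-/- mice, with 5.25 and 4.84, against 5.26 and 5.36 in *Nfkbiz*+/+ mice. Its log2 difference was -0.26 (95% interval -0.79 to 0.27). *Lama2*, the chain of muscle and nerve laminins, was 5.15 and 5.80 in *Nfkbiz*-/- mice, against 4.67 in M30 and 5.60 in M55. The log2 difference was 0.34 with all mice, passed both thresholds at 0.81 without M55 and was -0.13 without M30. *Lama3*, of the epithelial laminin-332, and *Lama4*, of vessel and fat laminins, had differences of -0.02 and 0.07.

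None of the β and γ chains was called, and in *Lamb1* 1 mouse stood apart. *Lamb1*, the β chain of laminin-111 and laminin-411, had log2 values of 3.25 and 3.12 in *Nfkbiz*-/- mice, against 2.76 in M30 and 4.44 in M55. M55 lay far above the other 3, each of which was below the lower quartile of its array. The log2 difference of -0.41 (SE 0.48) was 0.43 without M55, and -1.25 and past both thresholds without M30. M55 also held the high fat and muscle markers given above, whose part in *Lamb1* was not tested. *Lamc1*, the γ chain of most laminins, was 5.07 and 5.21 in *Nfkbiz*-/- mice, against 5.12 and 5.12 in *Nfkbiz*+/+ mice, with an interval of the log2 difference from -0.46 to 0.49. *Lamb2*, the β chain of muscle, vessel and glomerular laminins, and *Lamc3* both had differences of 0.11. *Lamb3*, of laminin-332, had a difference of -0.09.

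**Figure D5:**
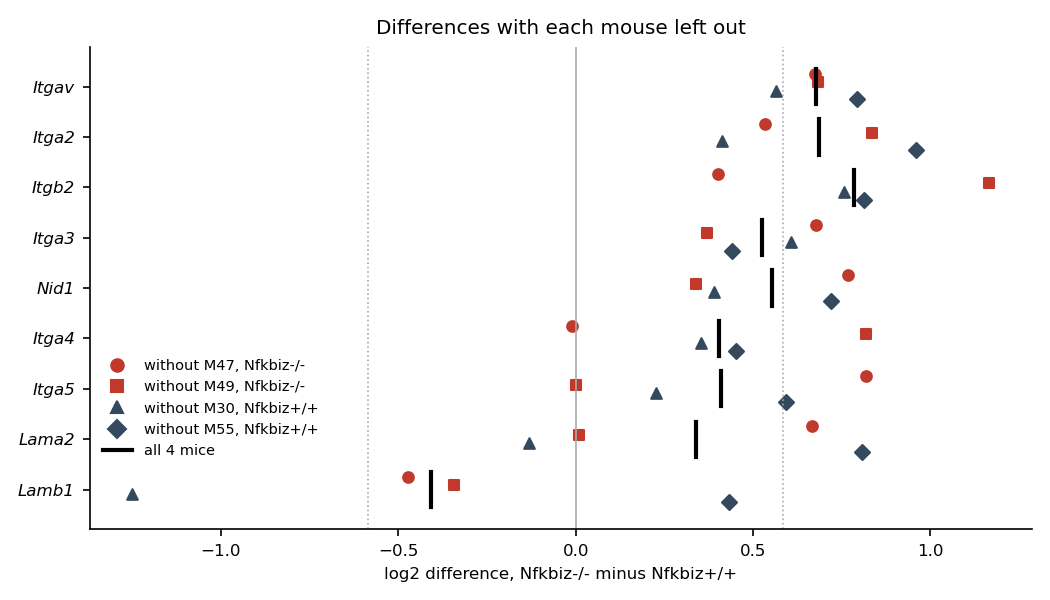
Log2 difference, *Nfkbiz*-/- minus *Nfkbiz*+/+, of 9 genes with all 4 mice (black bar) and with each mouse left out (points, named by the mouse left out). Dotted lines mark a 1.5-fold difference. *Itgav* stays between 0.56 and 0.79 and *Lamb1* runs from -1.25 to 0.43.

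Other parts of the basement membrane and of the adhesion machinery had few calls. Of 15 other basement membrane proteins and laminin receptors, 2 were higher and 0 lower, with a median log2 difference of 0.01. They were *Dag1*, dystroglycan, a laminin receptor that is no integrin, and *Agrn*, agrin, a proteoglycan that binds laminin and dystroglycan. *Dag1* had log2 values of 8.86 and 9.17 in *Nfkbiz*-/- mice, against 8.36 and 8.45 in *Nfkbiz*+/+ mice, a difference of 0.61 (SE 0.22, limma adjusted p = 0.497), lost without M49 (0.46) and without M30 (0.57). *Agrn* had 6.97 and 6.74 in *Nfkbiz*-/- mice, against 6.10 and 6.43 in *Nfkbiz*+/+ mice, a difference of 0.59 (SE 0.22, limma adjusted p = 0.520). It was lost without M47 (0.47), M49 (0.70) or M30 (0.42).

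Of 6 partners of hemidesmosomes, 1 was higher and 0 lower. This was *Dst*, dystonin, whose epithelial form ties keratin to β4, at 4.68 and 3.96 in *Nfkbiz*-/- mice, against 3.22 and 3.44 in *Nfkbiz*+/+ mice, a log2 difference of 0.99 (SE 0.28, limma adjusted p = 0.468) that was 0.63 and no longer called without M47. Both *Nfkbiz*+/+ values of *Dst* lay below the lower quartile of their arrays. Of 16 proteins that link integrins to actin, 1 was higher and 0 lower. The gene higher was *Parvb*, β-parvin, at 3.88 and 4.15 in *Nfkbiz*-/- mice, against 3.52 and 3.32 in *Nfkbiz*+/+ mice, the last 2 values again below that quartile. Its log2 difference of 0.59 (SE 0.22) was lost without M49 (0.46) and without M55 (0.50). In the same list *Lims2* fell just short of the call in the other direction, at 3.45 and 3.47 in *Nfkbiz*-/- mice, both below the quartile, against 4.26 and 3.82 in *Nfkbiz*+/+ mice. Its log2 difference was -0.58 (limma unadjusted p = 0.0367). None of 7 myoepithelial, 6 duct and 6 acinar markers, which mark the cells that carry epithelial integrins, was called, with median log2 differences of -0.06, -0.15 and -0.09.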

How the data were processed

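RNA of the salivary glands was hybridized to 1 Affymetrix whole-transcript array per mouse after labelling with the WT PLUS kit. The deposited values are log2 values that the authors obtained by RMA, which corrects background, sets the arrays to 1 distribution and summarizes the probes of a cluster. The same values stand in a second deposited table. The deposited number of probes per cluster, another kind of value, was read but not tested. The authors' fold changes, p-values, means and lists of changed genes were not used. The sources used here do not name the build of the deposited coordinates.

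Mice were grouped by their labels. The genotypes were compared with limma 3.58.1 in R 4.3.3 over 22206 clusters, with no covariate. The degrees of freedom were 2 residual and 5.53 prior, and p-values were adjusted across clusters by Benjamini-Hochberg. A gene was called at an unadjusted p under 0.05 and at least 1.5-fold. The methods of the study name t-tests, which were alternatives, and the code was tested on simulated data. Of the 37 genes, 1 is not reported here by itself, though it counts in the totals and medians. The genes and lists were chosen with earlier results of these data known. Values are given for the called genes, their partners, up to 4 genes of each group with the smallest p and up to 3 genes of each other list; other genes named with values were chosen after these were seen. No more than separate mice is known of the replicates, and the number of arrays, which have no read depth, limits the precision.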

Additional observations from a re-analysis of the deposited data

How the results depend on the processing

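The 3 genes called higher were called as well with an intensity trend, another quantile normalization, median-centred arrays, 1 cluster per gene and the second table, and 0 genes were lower in each. The t-test with equal variances called 1, *Itgav*, where 1.02% of all clusters were higher, and the form with unequal variances called 0, where 0.482% were. Of the 22 genes among the brighter clusters, 1 was called higher, *Itgav*, where 3.45% of those clusters were. *Itga2* and *Itgb2* were not among these 22. At 2-fold 0 genes were called, where 0.585% of all clusters were higher. Leaving out 1 mouse, with its lone companion assumed to vary like the other genotype, gave 0 to 4 genes higher and 0 to 1 lower, 0 to 1 of the epithelial and 0 to 2 of the leukocyte integrins higher (both counts added after the data were seen), and medians of 0.010 to 0.21 for laminins and nidogens, 0.28 to 0.44 for epithelial and 0.049 to 0.52 for leukocyte integrins. Over the other settings these medians lay at 0.07 to 0.13, 0.30 to 0.39 and 0.17 to 0.34, the 0.07 being that of the laminins alone, added after the data were seen. The log2 difference changed sign in 30 of 144 leave-one-out values of single genes, with ranges of -0.19 to 0.33 for *Itga1*, -0.21 to 0.15 for *Itga2b*, -0.011 to 0.82 for *Itga4*, -9e-05 to 0.82 for *Itga5*, -0.011 to 0.50 for *Itga6*, -0.47 to 0.39 for *Itga7*, -0.22 to 0.26 for *Itga9*, -0.69 to 0.47 for *Itgae*, -0.060 to 0.81 for *Itgal*, -0.41 to 0.31 for *Itgb1*, -0.22 to 0.26 for *Itgb3*, -0.41 to 0.0096 for *Itgb5*, -0.23 to 0.13 for *Itgb6*, -0.24 to 0.097 for *Itgb7*, -0.19 to 0.027 for *Itgb8*, -0.13 to 0.81 for *Lama2*, -0.10 to 0.071 for *Lama3*, -0.12 to 0.25 for *Lama4*, -1.25 to 0.43 for *Lamb1*, -0.091 to 0.31 for *Lamb2*, -0.20 to 0.021 for *Lamb3*, -0.055 to 0.083 for *Lamc1*, -0.059 to 0.29 for *Lamc3*. *Lama3* was 0.0011 after another quantile normalization. The causes were not tested. No paired analysis was possible because the labels number no mice across genotypes.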

Other observations

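A list of 14 genes, ligands of αV integrins together with *Ltbp1*, a binder of latent TGF-β, was made after its values were seen. Its counts are thus a description. Of these 14, 3 were higher in *Nfkbiz*-/- mice and 0 lower, where 2.93% of all clusters were higher and 3.69% lower. The median log2 difference was 0.20 beside -0.02 over all clusters, with 10 differences above 0 and 4 below. *Tgfb1* and *Tgfb3*, which encode forms of TGF-β, had differences of 0.24 and 0.29 and were not called. *Postn*, also not called, had -0.31. *Fn1*, fibronectin, had log2 values of 6.31 and 6.23 in *Nfkbiz*-/- mice, against 5.23 and 5.10 in *Nfkbiz*+/+ mice, a difference of 1.10 (SE 0.20, limma adjusted p = 0.468). *Thbs1*, thrombospondin-1, which binds αVβ3 and can activate latent TGF-β, had 9.24 and 8.88 in *Nfkbiz*-/- mice, against 6.36 in M30 and 8.07 in M55. *Ltbp1*, which holds latent TGF-β in the matrix, had 5.81 and 5.43 in *Nfkbiz*-/- mice, against 4.86 and 4.47 in *Nfkbiz*+/+ mice. All 3 were past both thresholds with any 1 of the 4 mice left out, *Thbs1* with a difference of 0.99 without M30 and 1.85 with all mice, whereas *Vtn*, vitronectin, had a difference of 0.04.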
